A study of Mus musculus with 6 samples.

Results

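The miR-297, miR-466, miR-467 and miR-669 microRNAs are a rodent group most of whose hairpins lie in 1 intron of Sfmbt2, and few reads were assigned to them in these mouse liver libraries. They were taken from the liver count table by name alone, as every mature microRNA called miR-297, miR-466, miR-467 or miR-669 plus a letter or a hyphen, which gave 80 of the 1907 mature names, names without a read included. Small RNA had been sequenced from livers of male mice of mixed strain background, 12 weeks of age per the labels, with a different mouse behind each of the 6 libraries. Regular chow was the only food of 3 of them, while the other 3 ate for 4 weeks a chow of 75% regular food and 25% soy bean powder. Of the 80 names, 67 had no read in any library, 13 had at least 1 read somewhere, and 1, miR-467d-5p, had enough reads for a test between the diets.

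MicroRNAs are short RNAs that pair with messenger RNAs, mainly through the seed near their 5′ end, and lower their translation or stability. Sfmbt2 encodes a Polycomb group protein and is expressed from the paternal allele in mouse trophoblast and early embryo, and the tandem microRNA copies in its intron are known for high levels in placenta and embryonic stem cells. Human SFMBT2 lacks the cluster. The comparison asked how much of them a whole liver library holds and whether the level follows a soy diet.

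In the GENCODE M21 annotation (GRCm38) Sfmbt2 spans 10370510 to 10595253 on the plus strand of mouse chromosome 2. It holds 72 of the 82 hairpins that carry these names, all on the strand of the gene and all in intron 10 of its transcript of 23 exons, over 51.6 kb. The cluster is largely made of tandem copies, with 12 hairpins named miR-669a, 10 named miR-467a and 8 named miR-466b. The other 10 hairpins lie elsewhere. Of the 80 mature names, 71 had at least 1 hairpin inside Sfmbt2 and 9 had none there (miR-466i-5p, miR-466i-3p, miR-466j, miR-466k, miR-466q, miR-467f, miR-467g, miR-467h and miR-669n), so the name of the cluster did not hold for these 9. Hairpins were joined to mature names by name, and the annotation behind the authors' mapping is not given in the sources used here.

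Mature sequences of 8 of the 80 names were in the RefSeq table (GRCm38.p6), all from hairpins outside Sfmbt2, and all 8 are shown. Each holds an unbroken UG or CA stretch of 7 to 12 bases. No name with a hairpin inside Sfmbt2 had a sequence there, so these 8 do not stand for the cluster. They run 5′ to 3′, with the seed (bases 2 to 8) in capitals. miR-466q lies at chr3:28419988-28420007 (plus strand), within a Tnik intron and in the direction of that gene, and miR-466k at chr3:85467396-85467418 (plus strand), within an intron of Gm37240 and opposite to it. None of the others is in an exon of a protein-coding gene either.
miR-466q: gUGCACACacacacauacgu
miR-466i-3p: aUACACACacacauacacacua
miR-467f: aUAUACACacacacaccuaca
miR-467g: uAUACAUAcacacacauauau
miR-466k: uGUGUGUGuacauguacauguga
miR-466j: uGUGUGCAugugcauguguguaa
miR-467h: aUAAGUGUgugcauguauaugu
miR-669n: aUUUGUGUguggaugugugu

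No pair of these 8 sequences shared a seed. The motif UGUGUG was in 4 of them and CACACA in the other 4, read on the strand of the RNA only, against 1.67% and 0.715% of the 1679 mature names in the RefSeq table. Of the 8, miR-466q alone had any read (14 in soy replicate 1), while the remaining 7, each on a locus of its own, were at 0 in all libraries.

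The 6 libraries held 5727546 (regular replicate 3) to 12762916 microRNA reads (soy replicate 1), and 440 to 507 of the 1907 names had a read in a given library. Levels are given as CPM, the reads of a name per 1000000 microRNA reads of its library. A count of 0 allows a level of up to 0.235 to 0.524 CPM, depending on the library (3 reads of its total), a limit that covers counting error only. The liver label was checked on 4 hepatocyte markers, which were abundant in every library: miR-122-5p, miR-192-5p, miR-148a-3p and miR-194-5p summed to 280494 to 322073 CPM in soy and 291036 to 349788 CPM in regular libraries.

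**Figure D1:**
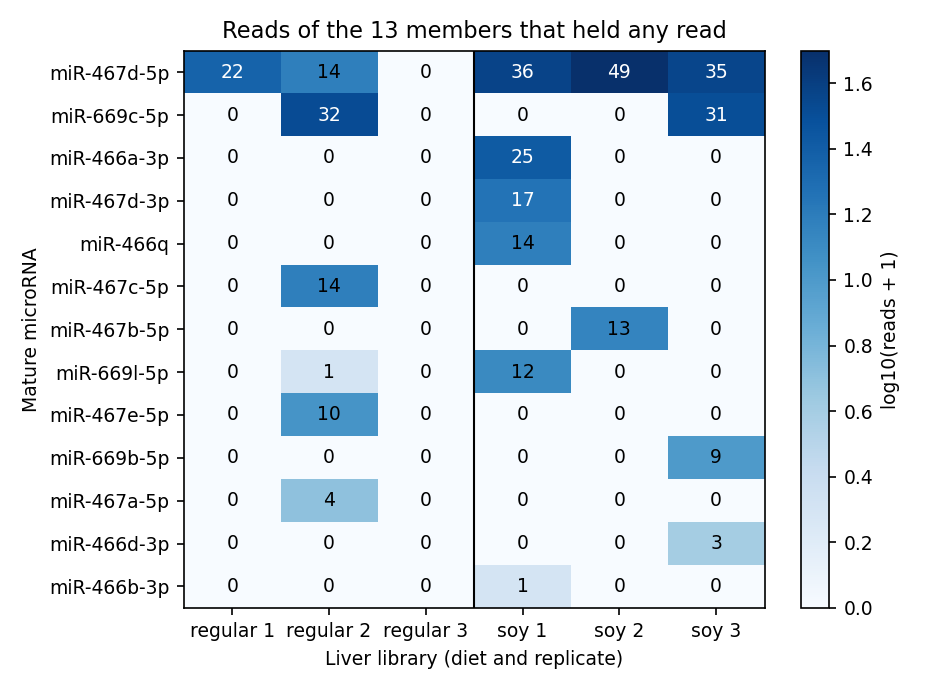
Reads (digits and colour, log10 of reads + 1) of the 13 members with any read, by library, with 3 regular-chow livers on the left and 3 soy livers on the right. miR-467d-5p had reads in 5 libraries, the other 12 names in 1 or 2, and regular replicate 3 had none.

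The 80 names together took 342 of 59266795 reads over the 6 libraries, or 5.77 CPM. By library they held 22, 75 and 0 reads in regular and 105, 62 and 78 reads in soy livers. Those are 2.15, 7.26 and 0 CPM against 8.23, 6.18 and 7.67 CPM, with a mean of 3.14 ± 3.73 (SD, n = 3) in regular and 7.36 ± 1.06 (SD, n = 3) in soy. The groups overlapped, since regular replicate 2 lay above soy replicate 2. Regular replicate 3 weighed on this difference: without it the gap between the means fell from 4.22 to 2.65 CPM. No test was made of this sum, as the names had been chosen with earlier results of these data known.

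The libraries differed in which names made up their sum. The miR-467 names, 13 in the table, gave 62.6% of all member reads and were present in 5 libraries, at 2.15, 4.07 and 0 CPM in regular and 4.15, 6.18 and 3.44 CPM in soy. The 30 miR-669 names gave 24.9%, in regular replicate 2 (3.20 CPM), soy replicate 1 (0.940 CPM) and soy replicate 3 (3.93 CPM). The 31 miR-466 names gave 12.6%, in soy replicates 1 (3.13 CPM) and 3 (0.295 CPM) only, and the 6 miR-297 names gave no read. In regular replicate 1 every member read was miR-467d-5p. Without miR-467d-5p the sums were 0, 5.91 and 0 CPM in regular and 5.41, 1.30 and 4.23 CPM in soy, again with overlap.

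**Figure D2:**
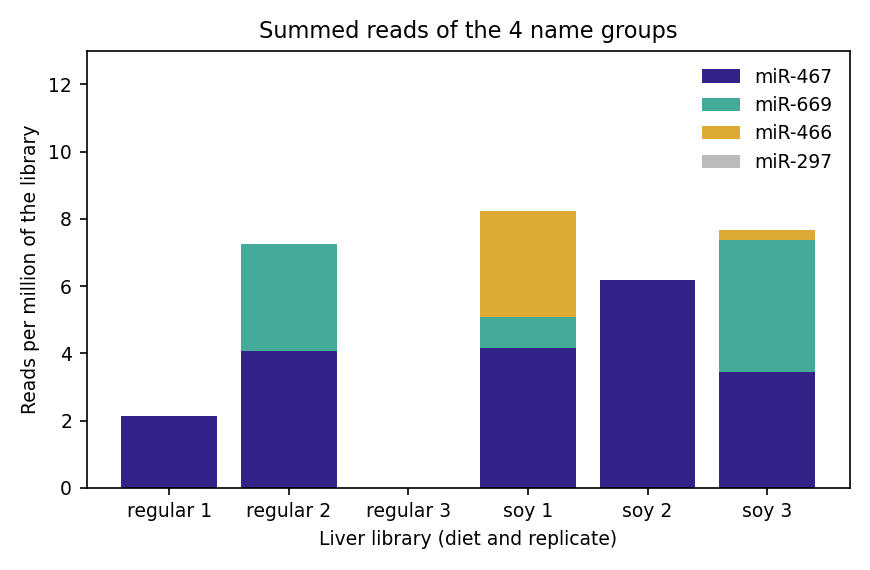
Summed level (CPM, on the total reads of each library) of the miR-467, miR-669, miR-466 and miR-297 names in each liver library, as stacked bars. miR-467 names were present in every library but regular replicate 3, and no miR-297 name had a read.

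miR-467d-5p was the most abundant member, with 156 reads or 45.6% of the group's total. Its hairpin lies at 10507630 to 10507714 of chromosome 2, 137 kb into Sfmbt2, and is the only one of that name. The reads were 22, 14 and 0 in regular replicates 1 to 3 and 36, 49 and 35 in soy replicates 1 to 3. As levels these are 2.15 (95% exact binomial interval 1.35 to 3.25), 1.36 (0.741 to 2.27) and 0 CPM (0 to 0.644) in regular livers. In soy livers they are 2.82 (1.98 to 3.90), 4.88 (3.61 to 6.46) and 3.44 CPM (2.40 to 4.78).

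Every soy library was thus above every regular library, although the counting intervals of regular replicate 1 and soy replicate 1 overlapped. Of the 437 microRNAs that met the minimum for a test (4 reads or more in no fewer than 3 libraries), 32, or 7.32%, showed the same separation with soy higher, on CPM scaled by TMM (trimmed mean of M values). miR-467d-5p stood at 3.71 ± 1.06 CPM (SD, n = 3) in soy and 1.17 ± 1.09 CPM (SD, n = 3) in regular livers, a difference of 2.55 CPM (two-sided exact permutation p = 0.1, the smallest that 3 mice against 3 allow). By edgeR's quasi-likelihood test the log2 fold change, soy over regular, was 1.64 ± 1.28 (SE), with an unadjusted p of 0.228 and an adjusted p of 0.982 over all 437 microRNAs. Soy and regular here, and so the sign of each difference, follow the diet that the labels give for each column.

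The test therefore did not call miR-467d-5p, so 0 of 1 tested member was called, and over the whole table edgeR called 0 of 437 (0%; 22 at an unadjusted p under 0.05). DESeq2 called 2 and limma-voom 0, miR-467d-5p not among them. In whole liver, a difference in the number of cells that make this microRNA and a difference in its level per cell cannot be told apart. Markers of blood cells (miR-142a-3p, miR-142a-5p, miR-150-5p, miR-223-3p, miR-451a and miR-144-3p, none at 0) summed to 2499 to 3135 CPM in soy and 1460 to 2846 CPM in regular libraries, with 5 of the 6 higher in soy by their fitted value and 0 called by edgeR or DESeq2. Higher in every soy library were miR-142a-5p (1180 to 1678 against 659 to 1129 CPM) and miR-150-5p (110 to 160 against 68.4 to 97.5 CPM). The ranges of the other blood cell markers overlapped. Over all 437 tested microRNAs, 32 (7.32%) were higher in every soy library, on CPM scaled by TMM. Mesenchymal markers (miR-143-3p, miR-145a-5p, miR-199a-5p and miR-214-3p, none at 0) summed to 18231 to 23942 CPM in soy and 16710 to 23647 CPM in regular libraries, a sum made mostly of miR-143-3p, with 2 markers higher and 2 lower in soy by their fitted value. Of these, miR-145a-5p was at 99.3, 81.6 and 115.8 CPM in regular and at 43.6, 48.7 and 54.0 CPM in soy libraries. It was thus lower in every soy library, a pattern that was not counted over all microRNAs. Its log2 fold change was -0.96 ± 0.22 (SE; adjusted p = 0.295) in edgeR, which called 0 of the 4 mesenchymal markers, and -0.96 ± 0.23 (SE; adjusted p = 0.00952) in DESeq2, which called this 1. The sign is opposite to that of the paper, which reports miR-145a-5p as higher in soy-fed mice by sequencing and by qRT-PCR. Where this difference comes from was not tested. A swap of the diet labels would reverse the sign for miR-467d-5p as well. The part of either cell type in the miR-467d-5p values was not tested.

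**Figure D3:**
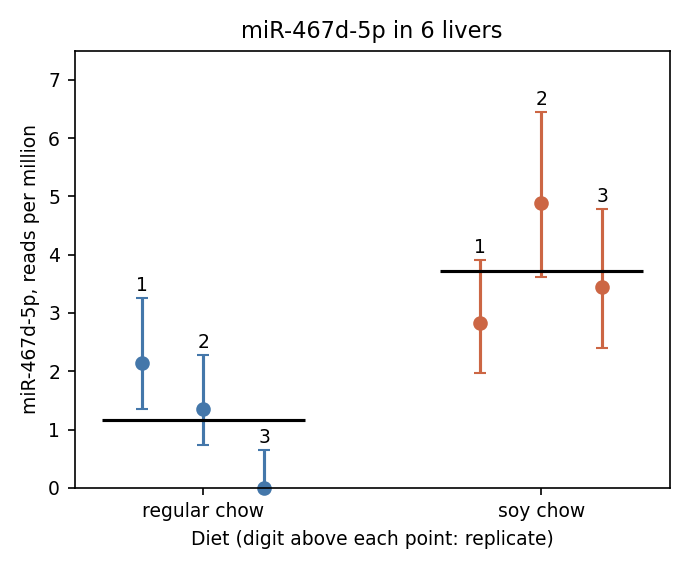
Level of miR-467d-5p (CPM) in each of 3 regular-chow and 3 soy livers; points are libraries with 95% exact binomial intervals, black lines are group means. The soy livers lay at 2.82 to 4.88 and the regular livers at 0 to 2.15.

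Regular replicate 3, the library of the smallest total, had 0 reads for each of the 80 names. At the miR-467d-5p levels of the other libraries, a library of that depth would hold 7.77 to 28.0 reads of it, and at their summed levels 12.3 to 47.1 reads of the whole group. In the full table, 16 microRNAs had 0 reads in regular replicate 3 and reads in all 5 other libraries, miR-467d-5p among them, against 12 for soy replicate 1, the deepest library, 11 for regular replicate 1 and 2 to 5 for the other 3. The part of depth in these zeros was not tested. Without regular replicate 3 the log2 fold change of miR-467d-5p was 1.14, with an adjusted p of 0.993 in edgeR.

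The opposite arm of the same hairpin, miR-467d-3p, had 17 reads in soy replicate 1 and 0 in the other 5 libraries. It was thus seen in a library with 36 reads of the 5p arm, but not in soy replicate 2 with 49. miR-467d was the only 1 of 33 stems (names with both arms in the table) that had reads of both. Of the remaining 32, 7 had reads of the 5p arm alone, 3 of the 3p arm alone and 22 of neither. Over all names the 5p arms held 282 reads and the 3p arms 46.

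The 11 further members with reads appeared in 1 or 2 livers each. Their names were given here after their values had been seen. miR-669c-5p was the second most abundant, with 32 reads (3.10 CPM) in regular replicate 2, 31 reads (3.05 CPM) in soy replicate 3 and 0 in the other 4 libraries, so it was seen in 1 liver of each diet. miR-467b-5p, which lowers lipoprotein lipase in mouse macrophages, had 13 reads in soy replicate 2 and 0 elsewhere. miR-669l-5p had 1 read in regular replicate 2 and 12 in soy replicate 1.

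Regular replicate 2 alone held reads of 3 further miR-467 5p arms, namely miR-467c-5p (14), miR-467e-5p (10) and miR-467a-5p (4). Soy replicate 1 alone held miR-466a-3p (25), miR-466q (14) and miR-466b-3p (1). Soy replicate 3 alone held miR-669b-5p (9) and miR-466d-3p (3). Each of these 8 names was thus seen in 1 liver, and 0 of them passed the minimum for a test.

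Of the 13 names with reads, 10 had them in exactly 1 library, 2 in 2 libraries and 1 in 5. Elsewhere in the table, reads in a single library were common among names with 1 to 9 reads and less so among those with 10 to 100. Among names with 10 to 100 reads in all, 6 of 8 members and 93 of 268 other microRNAs (34.7%) had them in 1 library, and among those with 1 to 9 reads, 4 of 4 and 79 of 93. Per library, 1, 6 and 0 members had a read in regular livers and 6, 2 and 4 in soy livers, a mean of 2.33 ± 3.21 against 4 ± 2 (SD, n = 3), so the groups overlapped.

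Within the intron, the names with reads and 1 hairpin stood in 2 stretches. Between these stretches lie only hairpins of names with several copies, so the gap is set by the annotation and not by the reads. The hairpins of miR-467e, miR-467d, miR-466a, miR-669c and miR-466d lie 135 to 141 kb from the start of Sfmbt2, with 203 bp between miR-467d and miR-466a and 1305 bp between miR-466a and miR-669c. miR-669b, miR-669l, miR-467c and miR-467b lie further upstream, at 97.3 to 110.7 kb. Of the 27 hairpins in the gene that are the only 1 of their name, 9 had reads of an arm, 323 in all, and neighbours of miR-467d such as miR-466p and miR-297c had none. Reads shared by tandem copies cannot be placed on a hairpin. Reads of names with 1 hairpin were placed by name alone. No mature sequence of a name inside Sfmbt2 was available, so whether such names share sequence with others was not tested.

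**Figure D4:**
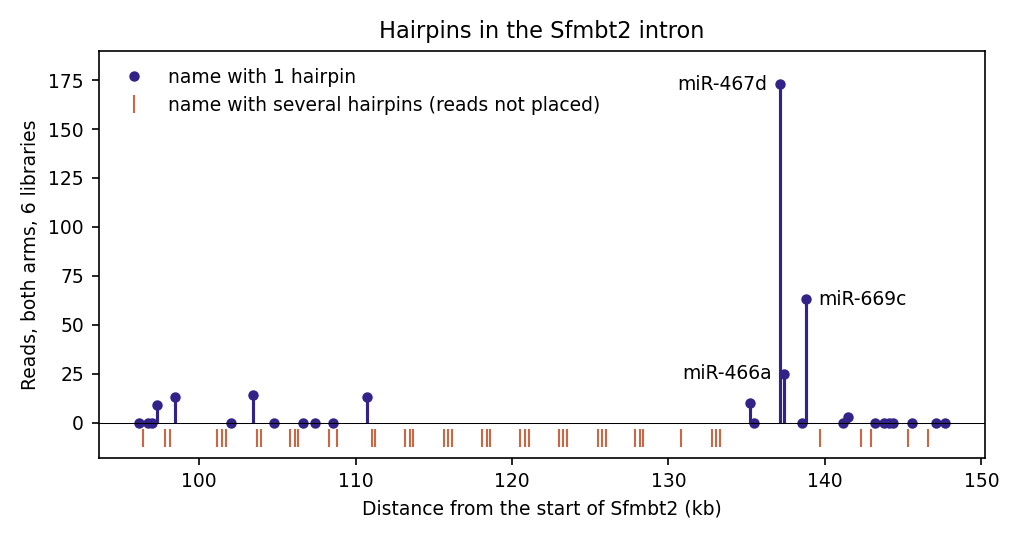
Reads of both arms summed over 6 libraries (vertical axis) for hairpins in the Sfmbt2 intron, by distance from the start of the gene in kb. Points are names with 1 hairpin, placed by name and not by sequence, and orange ticks mark the 45 hairpins of names with several. miR-467d (173 reads), miR-669c (63) and miR-466a (25) stood highest and lie within 2 kb of each other.

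Names made from many hairpins had hardly a read. Of the 18 names with 2 or more hairpins, 2 had reads, miR-467a-5p (10 hairpins, 4 reads) and miR-466b-3p (8 hairpins, 1 read). miR-669a-5p, with 12 hairpins, was at 0 in all libraries, as was miR-669a-3p. miR-669a is known in mouse for repression of MyoD in cardiac progenitors. Of the 62 names with 1 hairpin, 11 had reads, 337 in all. In the rest of the table the names with several hairpins were detected in 35 of 53 cases (66.0%) and those with 1 hairpin in 643 of 1727 (37.2%). How the authors placed reads that match several copies is not given, and its part in these zeros was not tested.

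The members at 0 included both arms of miR-466l, known in mouse for stabilising interleukin 10 messenger RNA in macrophages, and all arms of miR-297a, miR-297b and miR-297c. For each, the count of 0 allows up to 0.235 CPM in the deepest library. These reads say what could be detected at this depth, not that the microRNAs are absent from liver.

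Over the table, 38.5% of the 1827 other names had a read in some library and 23.9% passed the minimum for the test, against 16.2% and 1.25% of the 80 members. The imprinted Dlk1-Dio3 microRNAs, another large tandem cluster, had reads for 49 of 113 names (43.4%), and 24 passed. The miR-290 to miR-295 names, an embryonic stem cell cluster, had reads for 5 of 18 (27.8%), and 2 passed. These shares are given as a description, and the differences between them were not tested.

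**Figure D5:**
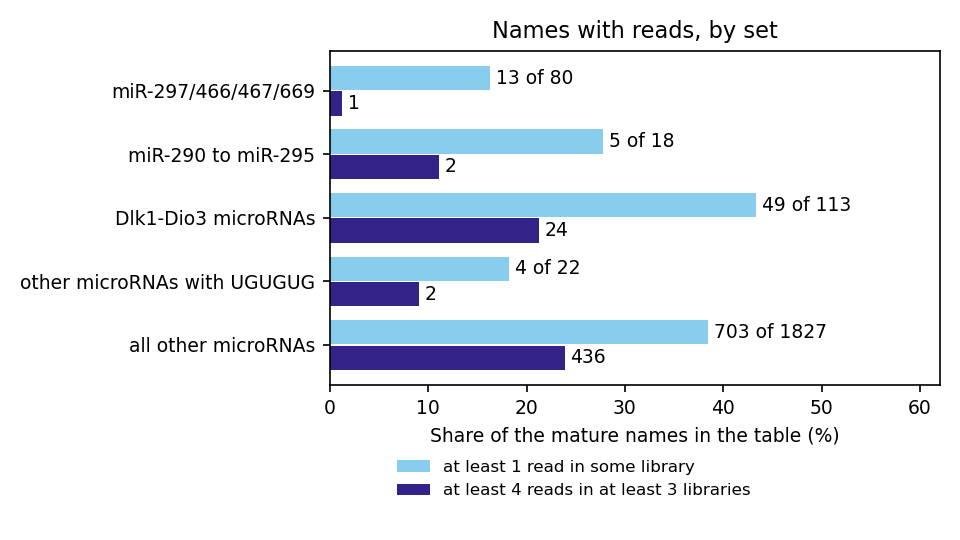
Share of mature names (percent) with at least 1 read in some library (light bars) and past the minimum for a test (dark bars), for the 80 members and 4 comparison sets. The members had 13 of 80 names with reads and 1 past the minimum.

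Other microRNAs with UGUGUG had reads in 18.2% of names and those with CACACA in 37.5% (3 of 8), beside 37.5% of the whole table. The differences between these shares were not tested. Outside the 4 name groups, 22 mature sequences in the table hold UGUGUG, and 4 had reads: let-7b-5p (7525 to 10322 per library), miR-32-3p (0 to 12), miR-672-5p (21 and 6 in regular replicates 1 and 2) and let-7k (1). Of these, let-7b-5p and miR-32-3p were tested, and 0 were called in either direction. Their log2 fold changes, soy over regular, were -0.38 ± 0.19 (SE) for let-7b-5p, with an adjusted p of 0.941 in edgeR, and -1.69 ± 2.11 for miR-32-3p, with an adjusted p of 0.982.

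The arms of miR-574, a microRNA from an intron of Fam114a1, are shown because its 5p arm holds a UG stretch of 13 bases, the most among the 1623 names of the table with a sequence, and its 3p arm a CA stretch of 7. miR-1187 is shown as a UG repeat without reads and miR-32-3p as one that was detected.
miR-574-5p: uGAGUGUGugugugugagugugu
miR-574-3p: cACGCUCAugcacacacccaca
miR-1187: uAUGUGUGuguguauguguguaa
miR-32-3p: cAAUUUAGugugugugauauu

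miR-574-5p had 0 reads in all 6 libraries, whereas miR-574-3p of the same hairpin had 1959, 1878 and 1295 reads in regular and 1273, 2104 and 1485 in soy livers. miR-1187 was at 0 in all libraries. miR-32-3p had 7, 7 and 12 reads in regular and 12, 0 and 0 in soy livers. Over the 1623 names of the table with a sequence, reads were present for 601 of 1576 (38.1%) whose longest UG or CA stretch was at most 5 bases and for 10 of 47 (21.3%) with 6 bases or more. Without the 8 members the latter was 9 of 39 (23.1%). Whether such reads were lost in the mapping was not tested.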

How the data were processed

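The deposited count table holds whole reads per mature microRNA without normalization. A second table deposited by the authors gives log2 levels after scaling, blank under 4 reads (0 mismatches with the counts). Scaling was described as the geometric-mean method of DESeq2, but each factor equalled, to within 6.24e-14, a ratio of summed reads over the microRNAs of 4 reads or more in each library. Libraries came from a TruSeq small RNA kit. The aligner, its settings and the genome build: not given in the sources used here. Columns left unused: 0.

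The fit covered all 437 microRNAs of 4 reads or more in no fewer than 3 libraries: edgeR 4.0.16 (R 4.3.3), quasi-likelihood test, TMM scaling, no covariate, Benjamini-Hochberg adjustment at 0.05. The SE is the log2 fold change divided by the root of F. Alternatives were DESeq2 1.42.0, limma-voom and limma 3.58.1, other scalings, filters and left-out libraries. The fit was tested on simulated data. CPM in the text uses total reads. Totals ranged from 5727546 to 12762916, and intervals cover counting error only.

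Members and lists were chosen with earlier results of these data known. Named members were to be those past the filter, and the opposite arm of each. The other names with reads were added after their values were seen.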

Additional observations from a re-analysis of the deposited data

How the results depend on the processing

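miR-467d-5p had a higher fitted level in soy under each of the 14 alternatives (log2 fold change 1.08 to 2.45, adjusted p = 0.508 to 0.997) and was called under none. Leaving out each library gave 1.14 to 2.45. limma on the deposited log2 values gave 1.08 without regular replicate 3, whose value is blank, limma-voom gave 2.26, and without regular replicate 1 edgeR gave 2.45. Without a filter 13 members entered edgeR's fit, and 0 were called (smallest adjusted p = 0.59). Over all microRNAs the count of calls was 0 in edgeR, 2 in DESeq2, 8 in edgeR without a filter, 5 with the replicate block and 0 with each library left out. In edgeR with the replicate block, miR-142a-5p (adjusted p = 0.031) and miR-145a-5p (adjusted p = 0.0432) were among the calls. Deviations of same-numbered libraries correlated at 0.133, -0.0823 and 0.04, within the range of differently numbered ones (-0.189 to 0.196). With 3 libraries per diet this cannot exclude a pairing by replicate number. Under the block miR-467d-5p was at 2.32 (adjusted p = 0.907 in edgeR). The difference of summed levels, 4.22 CPM, was 19.2 CPM when the 10 most abundant microRNAs left the total, which makes the denominator smaller, 2.55 with miR-467d-5p alone, and 2.65 to 6.28 with a library left out. The difference in members detected per library, 1.67, was 1.33 at a minimum of 4 or of 10 reads and 1.62 at the depth of the smallest library. Counting names with the same mature sequence together was not run, because the sequence table holds 8 of the 80. Totals of 1 to 63 reads per further member limit what these libraries can show.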
